A study of Homo sapiens with 4 samples.

Results

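The KMT2 family and its leukemia-linked relatives were examined in RNA-seq data of cells labelled NB4. A human line of that name derives from a patient with acute promyelocytic leukemia. The 10 genes were KMT2A, KMT2B, KMT2C, KMT2D, KMT2E, SETD1A, SETD1B, ASH1L, MEN1 and DOT1L. They were chosen by symbol, as the rows whose Ensembl identifiers carry these names in GENCODE release 44, and are 10 of the 58735 genes listed. The series holds 4 libraries, 2 from control cells without GNE-987 and 2 from cells treated with GNE-987 (GNE987 in the labels) at 25 nM for 24 h. The study gives the dose and the time in a figure legend. GNE-987 has 2 binding ends, which link target proteins to an E3 ligase and so mark them for degradation. All libraries carry the label of a single cell line, and no source used here says that the replicates were separate cultures, so P values measure the spread between libraries, which may be technical.

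Most of these genes encode enzymes that place methyl groups on histone H3 through a SET domain, and the KMT2 and SETD1 enzymes do so on lysine 4 within large assemblies known as COMPASS complexes. Menin, encoded by MEN1, holds KMT2A and KMT2B complexes at chromatin, ASH1L methylates lysine 36, and DOT1L methylates lysine 79 without a SET domain. KMT2A is the gene broken by translocations in acute leukemias, where its fusion proteins depend on menin and recruit DOT1L, and drugs against both of these partners have been developed for such leukemias. NB4 is known for another fusion, PML-RARA.

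Expression was given as FPKM, which is fragments per 1000 exon bases and per 1000000 reads of the library's scaling total. Whole reads could be recovered from the FPKM steps, and reads on genes came to about 19347286 and 19142227 in the controls. With GNE-987 they came to about 12238111 and 12740693. The scaling total was 1.16 to 1.19 times these reads in the controls but 0.683 to 0.693 times in the GNE-987 libraries. Mitochondrial genes took 3.77 to 4.56% of these estimated reads in the controls and 15.4 to 15.8% with GNE-987. Among 8 promyelocytic or granulocytic markers, 2 reached 1 FPKM in each control library and 4 to 5 with GNE-987, and their summed level was 9.53 to 10.8 and 29.6 to 32.3 FPKM. MPO was at 0.0246 and 0 FPKM in the controls and at 11.8 and 11.3 FPKM with GNE-987. ELANE was at 0 in the controls and CTSG was at 0 in all 4 libraries. The markers above 1 FPKM in the controls were SPI1, at 7.52 and 5.68 FPKM, and AZU1, at 2.07 and 2.10 FPKM. With GNE-987, MPO, AZU1 and CEBPE were called higher and CD33 lower, while SPI1 and PRTN3 were not called. Of 10 erythroid markers, 9 reached 1 FPKM in each control library and 8 to 9 with GNE-987, with summed levels of 323 to 324 and 334 to 383 FPKM. The granule markers MPO, ELANE and CTSG were thus absent or near 0 in the controls, while AZU1 and SPI1 were present. The part of cell identity and mitochondrial share in the results below was not tested. In bulk samples such as these, fewer cells of a type and less RNA per cell cannot be told apart.

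Of the 10 genes, 4 were called lower with GNE-987 and none was called higher. KMT2D, MEN1, KMT2B and DOT1L decreased 2.45-fold to 4.02-fold, while KMT2A, KMT2C, KMT2E, ASH1L, SETD1A and SETD1B stayed within a 2-fold change. A gene was called when limma gave an unadjusted P under 0.05 and the fold was over 2 or under 0.5. Counts of genes that fell or rose, here and below, are counts of such calls. By that rule 24.9% of all 16668 tested genes were called lower and 33.6% higher, and among the 10996 tested protein-coding genes 31.7% were lower and 24.0% higher. The 4 of 10 (40%) lower calls stand beside these shares, and no test was made on the list. The median log2 fold change was -0.61 over the 10 genes, 0.17 over all tested genes and -0.29 over tested protein-coding genes. All 10 genes passed the minimum mean of 0.5 FPKM.

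**Figure D1:**
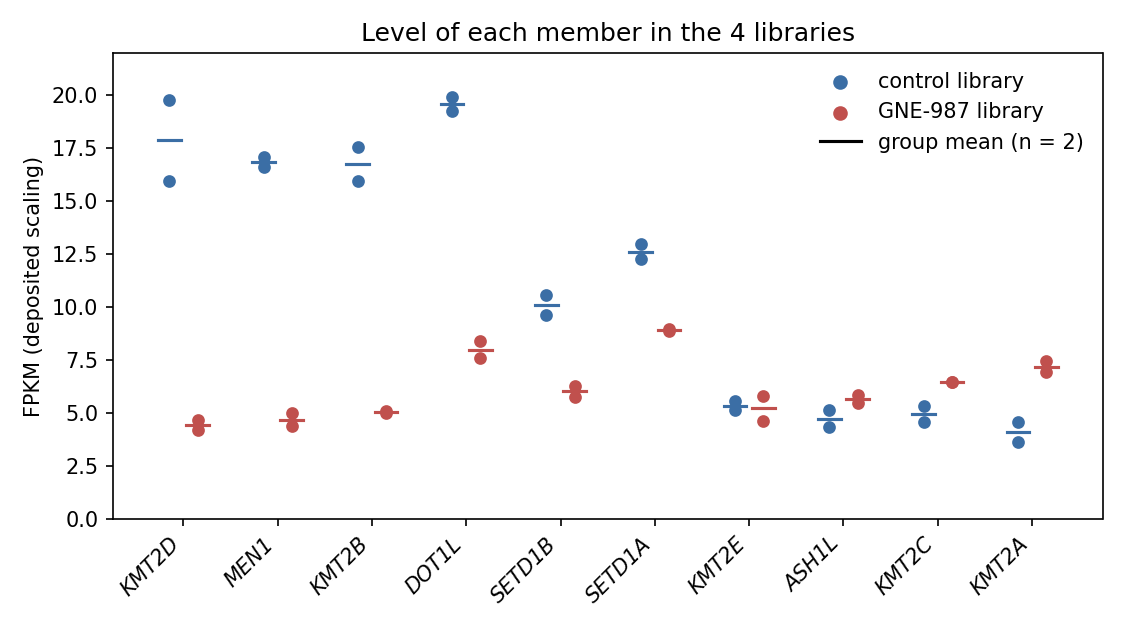
FPKM (linear axis from 0, deposited scaling) of each of the 10 genes in the 2 control and 2 GNE-987 libraries, with points for libraries and a line for each group mean. Control levels spread from 4.11 to 19.6 FPKM and GNE-987 levels from 4.45 to 8.95 FPKM, and KMT2E is the gene whose groups overlap.

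KMT2A and KMT2B are paralogs that bind unmethylated CpG DNA and trimethylate lysine 4 at promoters. KMT2A (ENSG00000118058, GRCh38 chr11:118436456-118526832, plus strand) was at 3.65 and 4.58 FPKM in the controls against 6.95 and 7.48 FPKM with GNE-987. Both treated libraries were above both controls. The log2 fold change was 0.80 ± 0.139 (SE, n = 2 per group, limma, Benjamini-Hochberg adjusted P = 0.00824), but the fold did not reach 2 and the gene was not called. KMT2B (ENSG00000272333, chr19:35717973-35738880, plus strand) was at 16.0 and 17.6 FPKM in the controls against 5.12 and 5.03 FPKM with GNE-987. The control values were far above the treated ones, with 3781 and 3995 recovered reads against 440 and 456. KMT2B fell by 1.70 ± 0.0744 on the log2 scale (limma, Benjamini-Hochberg adjusted P = 0.000284), a 3.31-fold drop of the mean from 16.8 ± 1.13 to 5.07 ± 0.0663 FPKM (SD, n = 2).

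KMT2C and KMT2D are the paralogs that monomethylate lysine 4 at enhancers, together with the demethylase KDM6A. KMT2C (ENSG00000055609, chr7:152134922-152436644, on the minus strand) stood at 4.61 and 5.35 FPKM in the controls against 6.46 and 6.49 FPKM with GNE-987. The treated libraries were above both controls by a small margin. The log2 fold change was 0.38 ± 0.0999 (limma, Benjamini-Hochberg adjusted P = 0.0291), under the 2-fold limit. KMT2D (ENSG00000167548, chr12:49018975-49060794, on the minus strand) stood at 16.0 and 19.8 FPKM in the controls against 4.22 and 4.68 FPKM with GNE-987. It held more recovered reads than any other of the 10 genes in the controls, 7526 and 8971, against 722 and 847 with GNE-987. KMT2D fell by 1.98 ± 0.136 on the log2 scale (limma, Benjamini-Hochberg adjusted P = 0.000693), and its mean went from 17.9 ± 2.72 to 4.45 ± 0.332 FPKM (SD, n = 2), a 4.02-fold drop.

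SETD1A and SETD1B, the catalytic subunits of the complexes that lay down most lysine 4 trimethylation at active promoters, were lower in both treated libraries but within a 2-fold change. SETD1A (ENSG00000099381, chr16:30957294-30984664, plus strand) was at 12.3 and 13.0 FPKM in the controls against 8.999 and 8.91 FPKM with GNE-987. SETD1B (ENSG00000139718, chr12:121804009-121832656, plus strand) was at 9.63 and 10.6 FPKM in the controls against 6.30 and 5.78 FPKM with GNE-987. In neither gene did the groups overlap. The log2 fold changes were -0.49 ± 0.0596 for SETD1A and -0.73 ± 0.0883 for SETD1B (limma, Benjamini-Hochberg adjusted P = 0.00295 and 0.00288), and neither was called.

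KMT2E, a divergent family member whose SET domain is not known to methylate lysine 4, showed no difference larger than the spread of its libraries. KMT2E (ENSG00000005483, chr7:104940943-105115019, plus strand) was at 5.14 and 5.58 FPKM in the controls against 5.83 and 4.65 FPKM with GNE-987, so that the treated libraries lay on either side of the controls. The log2 fold change was -0.04 ± 0.140 (limma, Benjamini-Hochberg adjusted P = 0.809), and its sign turned without control replicate 2 (0.018) or GNE-987 replicate 2 (0.12). ASH1L (ENSG00000116539, chr1:155335268-155563162, on the minus strand) stood at 4.34 and 5.16 FPKM in the controls against 5.50 and 5.85 FPKM with GNE-987. Its groups did not overlap, and the log2 fold change was 0.26 ± 0.116 (limma, Benjamini-Hochberg adjusted P = 0.113).

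Both cofactors that serve as drug targets in KMT2A-rearranged leukemia fell. MEN1 (ENSG00000133895, chr11:64803510-64811294, on the minus strand) stood at 16.6 and 17.1 FPKM in the controls against 5.01 and 4.403 FPKM with GNE-987. Both control values were far above both treated ones. MEN1 fell by 1.82 ± 0.0879 on the log2 scale (limma, Benjamini-Hochberg adjusted P = 0.000341), a 3.58-fold drop of the mean, on 1623 and 1605 recovered reads in the controls and 178 and 165 with GNE-987. DOT1L (ENSG00000104885, chr19:2163933-2232578, plus strand) was at 19.3 and 19.9 FPKM in the controls against 7.60 and 8.42 FPKM with GNE-987. It was the gene of highest mean among the 10 in the controls. DOT1L fell by 1.28 ± 0.0748 on the log2 scale (limma, Benjamini-Hochberg adjusted P = 0.000487), a 2.45-fold drop of the mean. In 9 of the 10 genes the groups of libraries did not overlap, beside 89.1% of all tested genes.

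The order of the levels changed between the groups. In the controls DOT1L, KMT2D, MEN1 and KMT2B were highest, with means of 16.8 to 19.6 FPKM and overlapping ranges between neighbours. SETD1A at 12.6 FPKM and SETD1B at 10.1 FPKM came next, each apart from its neighbours, and KMT2E, KMT2C, ASH1L and KMT2A were lowest at 4.11 to 5.36 FPKM with overlapping ranges. With GNE-987 the order was SETD1A at 8.95, DOT1L at 8.01, KMT2A at 7.21 and KMT2C at 6.48 FPKM, with no overlap between neighbours. SETD1B, ASH1L, KMT2E and KMT2B followed at 5.07 to 6.04 FPKM with overlapping ranges, and MEN1 and KMT2D came last at 4.71 and 4.45 FPKM, also overlapping. KMT2D thus moved from the second place to the last and KMT2A from the last to the third. These are levels per length, and the length counted depends on the gene model. The reads of KMT2A came out whole at 31305 exon bases and those of KMT2C at 20114, while their canonical transcripts in GENCODE have 16600 and 16860 bases.

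Ratios of 2 genes within a library do not depend on the scaling of the library. The ratio of KMT2A to KMT2B in FPKM was 0.228 and 0.260 in the controls and 1.36 and 1.49 with GNE-987. KMT2A was thus the lower of the pair in both controls and the higher in both treated libraries, a 5.83-fold shift of the ratio. For KMT2C to KMT2D the ratio was 0.289 and 0.270 in the controls and 1.53 and 1.39 with GNE-987, a 5.22-fold shift. This pair also had the opposite order in both treated libraries. The ratio of SETD1A to SETD1B moved far less, from 1.28 and 1.22 to 1.43 and 1.54, or 1.19-fold. KMT2A to its cofactor MEN1 went from 0.220 and 0.268 to 1.39 and 1.70, a 6.32-fold shift, and DOT1L to KMT2A went from 5.29 and 4.35 to 1.09 and 1.13. The ratios were not tested, because the smallest two-sided P that an exact permutation test of 2 against 2 libraries can give is 0.333.

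**Figure D2:**
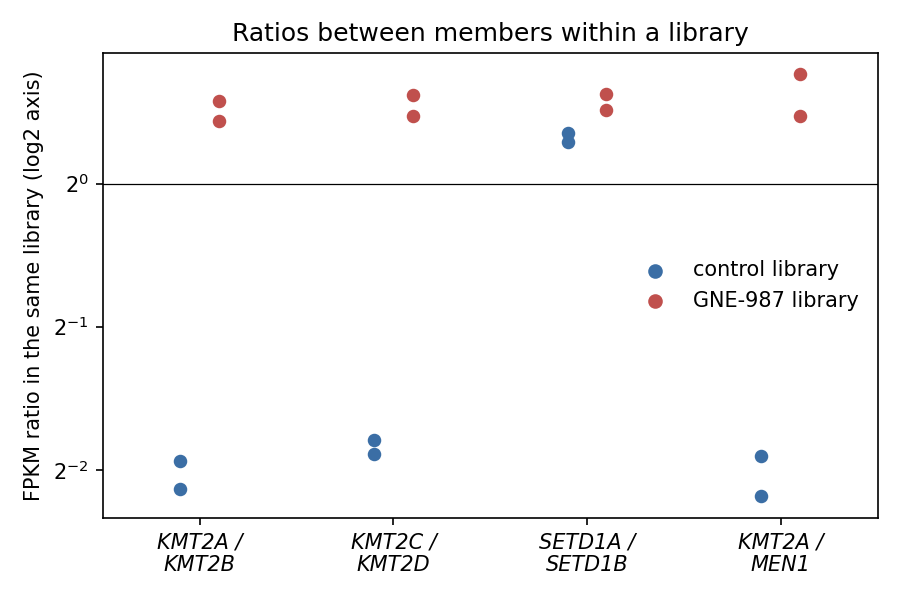
FPKM ratio of 2 genes in the same library (log2 axis), with control and GNE-987 libraries as points and a line at a ratio of 1. The ratios with KMT2A or KMT2C on top lie below 1 in both control libraries and above 1 in both GNE-987 libraries, while SETD1A to SETD1B stays above 1 in all 4.

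The size and, for some genes, the sign of a change depended on the scaling of the libraries. With the libraries scaled to their total of estimated reads on genes, the median of all tested genes shifted by -0.73 on the log2 scale. By this scaling 6 of the 10 genes were called lower, beside 6626 of 16668 tested genes. SETD1A at -1.25 and SETD1B at -1.49 joined the other 4. KMT2A then stood at 0.05, and KMT2C at -0.38 and ASH1L at -0.50 changed sign. With scaling to GAPDH, a glycolytic enzyme often used as a reference gene, the median shifted by -1.77. That scaling divides each library by its GAPDH level, so GAPDH itself was higher with GNE-987 in the deposited values. Whether it is a fair reference here was not tested. All 10 genes were called lower by it, beside 9738 of 16668 tested genes, with KMT2A at -1.02 and KMT2D at -3.80. Quantile normalization and median-ratio scaling left 4 calls, beside 5464 and 3730 of the tested genes called lower. Relative to the median of tested genes the values moved less. KMT2A lay 0.58 to 1.03 above it and KMT2D between -2.20 and -1.83 from it over these 4 other scalings, while KMT2E went from -0.26 to 0.20. Under all of them KMT2B, KMT2D, MEN1 and DOT1L were called lower and none of the 10 genes was called higher.

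**Figure D3:**
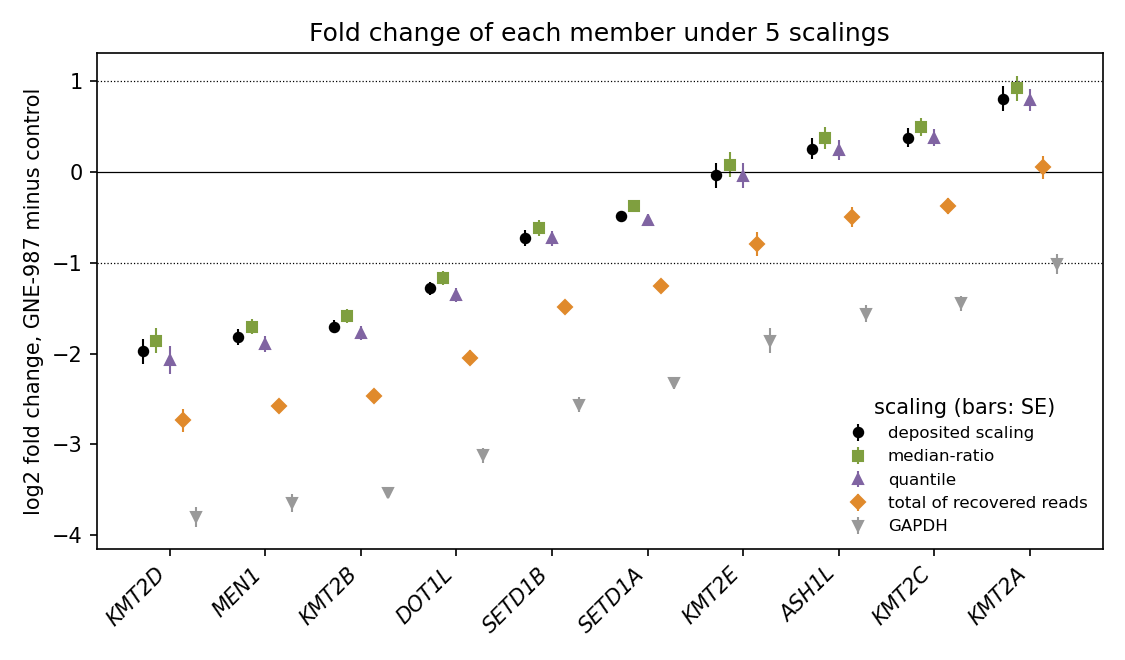
log2 fold change of GNE-987 minus control for the 10 genes under the deposited scaling and 4 others, with bars for the SE and dotted lines at a 2-fold change. The order of the genes is kept while the whole set moves down with total reads and further with GAPDH, where KMT2A goes from 0.80 to -1.02.

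The promoters of KMT2A, KMT2B and KMT2D are shown, from RefSeq promoter windows (GRCh38.p14), because KMT2A and KMT2D had the highest and the lowest log2 fold change of the 10 genes and KMT2B is the paralog of KMT2A that fell. Each line gives the 120 bases just before the outermost annotated start, 5′ to 3′ on the strand of the gene. Capitals mark the GC box, GGGCGG on either strand (CCGCCC on the other), which is the core of the motif bound by SP and KLF factors.
KMT2A, chr11:118436336-118436455, plus strand: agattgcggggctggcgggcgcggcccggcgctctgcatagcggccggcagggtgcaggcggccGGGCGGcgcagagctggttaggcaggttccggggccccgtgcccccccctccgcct
KMT2B, chr19:35717853-35717972, plus strand: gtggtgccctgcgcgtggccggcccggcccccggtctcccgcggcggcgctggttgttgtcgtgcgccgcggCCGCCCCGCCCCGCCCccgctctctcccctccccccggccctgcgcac
KMT2D, chr12:49060795-49060914, minus strand: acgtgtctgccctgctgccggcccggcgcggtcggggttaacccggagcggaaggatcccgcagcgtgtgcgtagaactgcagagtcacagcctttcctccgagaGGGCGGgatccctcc
The stretch before KMT2B holds 3 GC boxes that overlap by single bases, and those before KMT2A and KMT2D hold 1 each. Over the full windows of 250 bases, 8 of the 10 genes had an entry, all but SETD1B and DOT1L. Of the 8, 7 held a GC box, against 42.6% of 35116 promoters. MEN1, which had 2 entries, was the gene without it in the window nearest its outermost start, and its other window was not searched. The box was held by KMT2B and KMT2D, which fell, and by KMT2A, KMT2C, KMT2E, SETD1A and ASH1L, which were not called. A link between the motif and the fold changes was not tested. The E-box CACGTG, which reads the same on both strands, was in 1 of the 8 windows, that of KMT2D, against 6.34% of all promoters. An ETS motif (CCGGAAG, or CTTCCGG on the other strand) and a GATA motif (AGATAA or TTATCT) were in 0 of the 8, against 8.52% and 9.17% of all promoters. The 8 windows held 15 to 48 CpG sites, against a median of 11.

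The 10 genes separated by base composition into groups with no gene between them. KMT2A, KMT2C, KMT2E and ASH1L had 41.9 to 46.9% G and C bases in their canonical transcripts, spanned 90.4 to 302 kb of the genome and had log2 fold changes of -0.04 to 0.80. The other 6 had 59.8 to 63.5% G and C bases, spanned 7.79 to 68.6 kb and had log2 fold changes of -1.98 to -0.49. This split was noticed after the values were seen. Over the 10 genes Spearman's rho with the log2 fold change was -0.564 for G and C content and 0.733 for the span, and the points share libraries and scaling. Over the 10996 tested protein-coding genes the rho values had the opposite signs, 0.193 and -0.185. KMT2B, for example, lay at -1.70 in the tenth of genes richest in G and C, whose median was 0.20, and KMT2C lay at 0.38 in the tenth of the longest genes, whose median was -0.68.

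**Figure D4:**
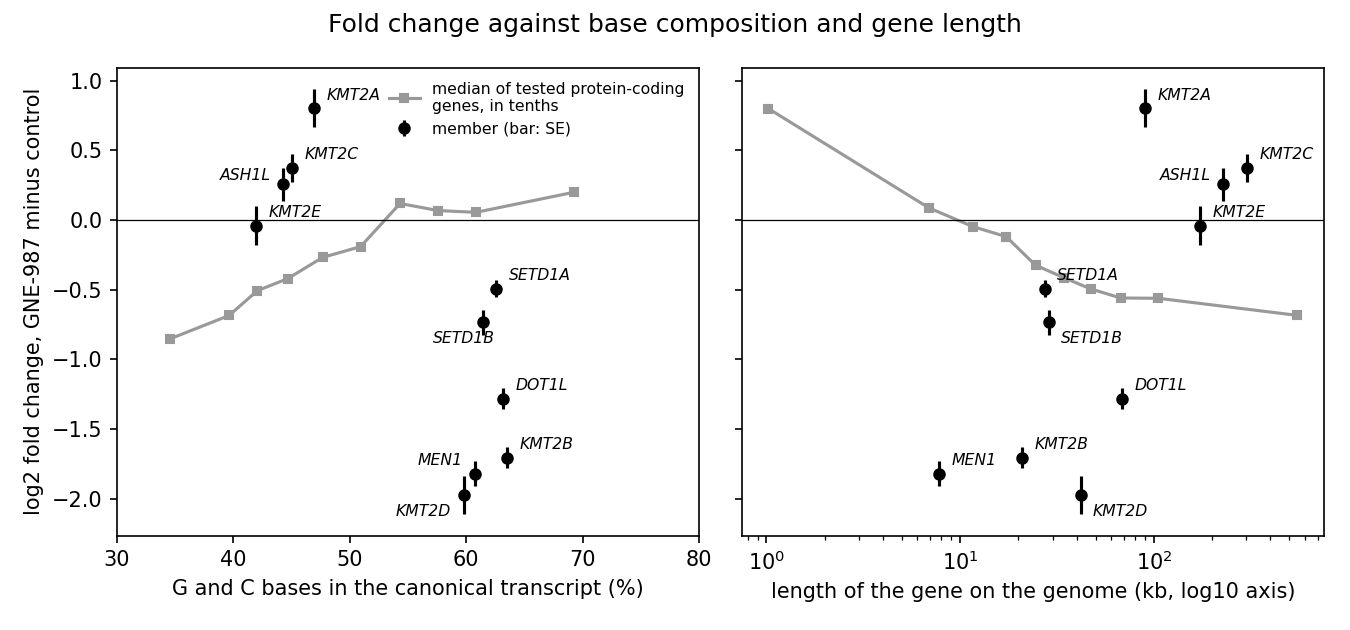
log2 fold change of the 10 genes (points with SE bars) against G and C content of the canonical transcript (left, %) and length of the gene on the genome (right, kb, log10 axis), with grey squares for the medians of tested protein-coding genes in 10 equal groups. The 4 genes poorest in G and C lie at -0.04 to 0.80 and the other 6 at -1.98 to -0.49, while the grey medians go from -0.85 up to 0.20 with rising G and C content.

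Some reads of these genes cannot be told apart from those of their neighbours, since the counting rule for shared bases and its use of strand are not given in the sources used here. Of 23 overlapping genes with values, 14 were under the minimum mean and 9 were tested. Of the 9, 2 rose and 2 fell, beside 33.6% of all tested genes called higher and 24.9% called lower. The most extensive overlap lay on the same strand, where the protein-coding ENSG00000285827 shares 5755 exon bases with KMT2A. It was at 0.00674 and 0.00701 FPKM in the controls and at 0 and 0.0351 FPKM after treatment, and no strand setting would separate its reads from those of KMT2A. PLEKHJ1, which shares 529 exon bases with DOT1L on the opposite strand, was at 20.8 and 19.3 FPKM in the controls against 5.45 and 5.26 FPKM with GNE-987, and fell by 1.89 on the log2 scale. AP3D1, which overlaps DOT1L on the opposite strand with 0 shared exon bases, had a log2 fold change of 0.10. SRPK2, a splicing factor kinase that shares 369 exon bases with KMT2E, was at 5.21 and 5.005 FPKM in the controls against 1.68 and 1.501 FPKM with GNE-987, and fell by 1.63. In the other direction, the noncoding LINC01004 within the KMT2E locus, with 0 shared exon bases, rose from 1.34 and 1.04 to 5.61 and 8.01 FPKM. ENSG00000272918, which shares 45 bases with KMT2E, rose by 1.63 on the log2 scale at values of 0.171 to 1.22 FPKM. KMT2E itself, between these neighbours, had no call. The antisense genes KMT2E-AS1 and ASH1L-AS1 share 158 and 224 exon bases with their partners and had log2 fold changes of 0.36 and -0.71, neither called. ENSG00000204894 within KMT2C and RNU6-106P within ASH1L had values above 0 in GNE-987 replicate 1 alone, 2.66 and 4.47 FPKM, and were not called. KMT2C has near-identical partial copies, of which KMT2CP1 to KMT2CP4 were listed at 0 in all 4 libraries and KMT2CP5 reached 0.0590 FPKM in a single control library. BAGE2, which derives from the same duplications, was at 1.72 and 2.19 FPKM in the controls against 1.20 and 0.916 FPKM with GNE-987, so the values of KMT2C are uncertain to the extent that reads were split between copies. The copies were named after their values were seen.

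Partners and pathway genes were described with 7 lists of 65 genes, of which 57 were tested. The lists were chosen with earlier results of these data known, and whether that choice affected the shares called was not tested. No test was made on any list. Of the 57, 31 (54.4%) fell and 6 (10.5%) rose, beside 24.9% lower and 33.6% higher over all tested genes. Over tested protein-coding genes the shares were 31.7% and 24.0%. The median log2 fold change was -1.04, beside -0.29 over tested protein-coding genes. Of the shared COMPASS core, 2 of 4 subunits fell and none rose, beside 31.7% of tested protein-coding genes called lower. WDR5, the scaffold that anchors the catalytic subunit, was at 25.5 and 23.5 FPKM in the controls against 8.87 and 9.83 FPKM with GNE-987, and fell by 1.38 on the log2 scale. ASH2L, which activates the SET domain, went from 30.2 and 30.7 to 7.61 and 8.38 FPKM and fell by 1.92. RBBP5, which binds ASH2L in the core, had a log2 fold change of 0.04.

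Of 12 subunits that belong to some KMT2 or SETD1 complexes but not to the shared core, 7 (58.3%) fell and 3 (25%) rose, beside 31.7% and 24.0% of tested protein-coding genes, so the share that rose was near the background. HCFC1, a cofactor of KMT2A, KMT2B and SETD1 complexes, was at 44.6 and 44.3 FPKM in the controls against 8.82 and 8.23 FPKM with GNE-987, and fell by 2.37. Its paralog HCFC2 went from 0.795 and 1.05 to 2.33 and 2.64 FPKM and rose by 1.34. BOD1 and BOD1L1, paralogs tied to SETD1B and SETD1A complexes, also went opposite ways. BOD1 fell by 2.21, from 8.70 and 8.47 to 2.07 and 1.52 FPKM, and BOD1L1 rose by 1.17, from 3.04 and 3.59 to 7.45 and 7.62 FPKM. WDR82, which ties SETD1 complexes to RNA polymerase II, fell by 1.82, and KDM6A, the lysine 27 demethylase of KMT2C and KMT2D complexes, rose by 1.03 from 4.33 and 4.34 to 8.91 and 9.05 FPKM. The rises of HCFC2, KDM6A and BOD1L1 were not called with scaling to total reads, with a pseudocount of 1 or with scaling to GAPDH, under which all 3 lay below 0. HCFC2 was also not called with quantile normalization, and without GNE-987 replicate 2 only 2 genes of this list were called higher.

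Of 11 tested partners of DOT1L and of KMT2A fusions, 6 (54.5%) fell and 1 (9.09%) rose, beside 31.7% and 24.0% of tested protein-coding genes. MLLT3, a YEATS domain protein that recruits DOT1L, was at 1.78 and 1.56 FPKM in the controls against 0.235 and 0.293 FPKM with GNE-987, and fell by 2.28. MLLT6 and MLLT10, PHD finger proteins of the DOT1L complex, fell by 2.06 and 1.84. The septin SEPTIN6, also a fusion partner of KMT2A, rose by 1.07, from 12.9 in both controls to 27.3 and 27.0 FPKM, a call that was lost with quantile normalization, total reads and GAPDH, the last of which turned its sign. Of 7 histone demethylases of the KDM1, KDM2 and KDM5 families, 3 (42.9%) fell and none rose, beside 31.7% of tested protein-coding genes called lower, a share close to it for a list of this size. KDM1 and KDM5 enzymes remove methyl groups from lysine 4, and KDM2A and KDM2B are known chiefly for lysine 36. KDM5C went from 28.4 and 29.1 to 6.41 and 5.99 FPKM and fell by 2.19, while KDM1A and KDM2B fell by 1.06 and 1.04 and were no longer called with median-ratio scaling.

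Of 7 lysine 36 methyltransferases and ASH1L partners, 4 (57.1%) fell and none rose, beside 31.7% of tested protein-coding genes called lower. NSD1, which dimethylates lysine 36, was at 6.99 and 8.31 FPKM in the controls against 0.973 and 0.980 FPKM with GNE-987, and fell by 2.84. SETMAR, a SET domain fused to a transposase, fell by 2.22 and RBBP4, a histone-binding protein of several chromatin complexes, fell by 1.28. Of 11 targets of the KMT2A-menin complex, 5 passed the minimum mean, of which 2 (40%) fell and 1 (20%) rose, near the 31.7% and 24.0% of tested protein-coding genes. CDK6, a cell cycle kinase, was at 10.6 and 10.8 FPKM in the controls against 2.12 and 1.75 FPKM with GNE-987, and fell by 2.42. MEF2C, a transcription factor, fell by 1.56. CDKN1B, the cyclin-dependent kinase inhibitor p27, rose by 2.23 from 10.5 and 11.8 to 55.0 and 50.1 FPKM, and was not called with scaling to GAPDH. HOXA7, HOXA9 and HOXA10 were listed at 0 in all 4 libraries, and MEIS1, PBX3 and FLT3 were under the minimum mean.

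**Figure D5:**
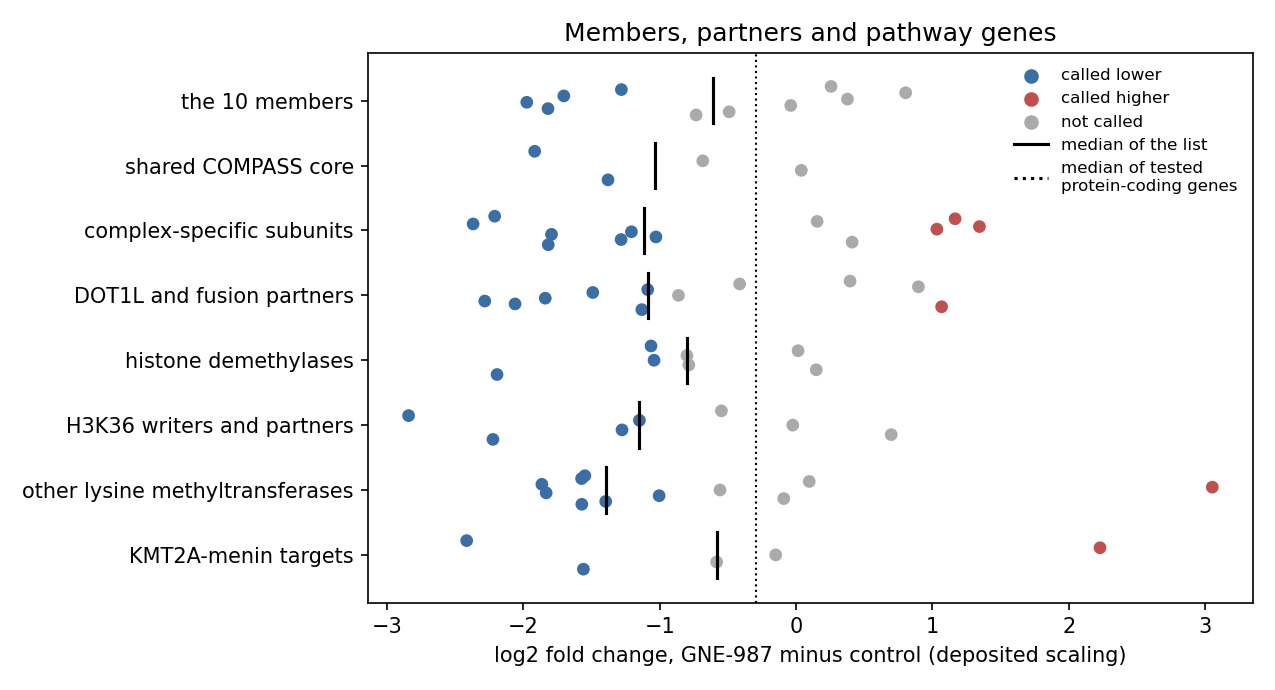
log2 fold change of GNE-987 minus control (deposited scaling) for the 10 genes and for each partner or pathway list, 1 point per tested gene, coloured by call, with a bar for the median of the list and a dotted line for the median of tested protein-coding genes (-0.29). Medians of the lists lie between -1.40 and -0.58, and 6 of the 57 tested partner and pathway genes lie to the right as called higher.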

How the data were processed

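RNA-seq libraries of cells labelled NB4 were made from total RNA with a TruSeq kit. The authors mapped filtered reads with HISAT (HISAT2 2.0.5 and hg38 in the submitters' processing notes) and deposited FPKM per gene and library, and the counting program, annotation and strand setting are not given in the sources used here. Of 58735 identifiers, 58207 (99.1%) were in GENCODE release 44, which gave names and positions. Groups and replicate numbers came from the labels. The members and lists were chosen with earlier results of these data known.

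Where the mean over 4 libraries reached 0.5 FPKM (16668 genes), log2(FPKM + 0.1) was fitted with limma 3.58.1 under R 4.3.3 (2 against 2 libraries, two-sided, empirical Bayes with an intensity trend, no block). Fold changes are on this scale, which understates the change of low genes, except folds of mean FPKM. Calls used an unadjusted P under 0.05 and a fold over 2 or under 0.5, the thresholds of the study, and adjusted P values are Benjamini-Hochberg over all tested genes. Reads were recovered with a tolerance of 0.01 read. At GENCODE exon lengths 53.0% of 32895 genes above 0 came out whole, and each of the 10 members did so at a single base length. Totals of reads on genes, mitochondrial shares and limma-voom used the GENCODE lengths for all genes, so those reads are estimates. Because the values are FPKM, no count test was the main test. Besides the members, the text names up to 3 called genes with the largest rise and up to 3 with the largest fall of each list, the tested genes that overlap a member, and ENSG00000285827. RBBP5, MEIS1, PBX3, FLT3 and the HOXA genes were named after their values were seen. Alternatives were other scalings, a pseudocount of 1 or 0.01, a minimum mean of 1 FPKM or none, and limma-voom on estimated reads. Benjamini-Hochberg calls, a replicate block and leaving out each library were also run. The fit was tested on simulated data for this comparison. Of 100 genes changed by 2 on the log2 scale 87 were called with the right sign. Of 100 changed by 3 it was 95, and 228 of 16468 unchanged genes (1.38%) were called. Only 200 genes were changed, fewer than were called in the data, and none by a fold near the limit of 2. These rates therefore need not hold for the data.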

Additional observations from a re-analysis of the deposited data

How the results depend on the processing

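KMT2B, KMT2D, MEN1 and DOT1L kept their direction and call under all alternatives run, and none of the 10 genes was called higher under any. Scaling to GAPDH gave 3031 genes higher and 9738 lower, 10 members lower, 1 partner or pathway gene higher and 50 lower, and a members' median of -2.44, with KMT2A at -1.02, KMT2C at -1.44 and ASH1L at -1.56. Scaling to total estimated reads gave 6626 genes lower, 2 partner or pathway genes higher and a members' median of -1.37, with KMT2C at -0.38 and ASH1L at -0.50. Both follow from a lower scaling of the GNE-987 libraries. Median-ratio scaling gave a members' median of -0.50 and KMT2E at 0.077. A pseudocount of 1 gave 3 partner or pathway genes higher, and no filter gave 8757 genes higher, since more genes were tested. Where no cause is given, it was not tested.

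Leaving out each library in turn gave 4978 to 5374 genes higher, 3714 to 4101 lower, 4 members lower each time, a members' median of -0.67 to -0.56 and KMT2E at -0.20 to 0.12. Without GNE-987 replicate 2, 2 rather than 1 of the DOT1L and fusion partners were higher. With 1 library left in a group, that library is assumed to vary like the other group. A fit with a replicate block called 5667 genes higher, 4186 lower and 4 members lower. Same-numbered libraries did not deviate together (correlation 0.00537). With 2 libraries per group this cannot show whether same-numbered libraries shared a culture or a batch. The GNE-987 libraries were the shallower pair, and values resting on few reads there are the least precise.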

Other observations

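Of 11 tested lysine methyltransferases outside the KMT2 and SETD1 groups that are related to them or linked to leukemia, 7 (63.6%) fell and 1 (9.09%) rose, beside 31.7% and 24.0% of tested protein-coding genes, with a median log2 fold change of -1.40. SETDB1 and EHMT2 both methylate lysine 9 of histone H3. SETDB1 went from 5.90 and 6.37 FPKM in the controls to 1.52 and 1.79 FPKM with GNE-987 and fell by 1.83, and EHMT2 went from 14.4 and 13.9 to 4.76 and 4.63 FPKM and fell by 1.57. KMT5B, which methylates lysine 20 of histone H4, fell by 1.86, from 4.196 and 4.34 to 1.09 and 1.10 FPKM. PRDM2, a zinc finger protein with a PR domain related to SET, was at 5.58 and 5.79 FPKM in the controls against 48.7 and 47.2 FPKM with GNE-987. It rose by 3.05 ± 0.0522 on the log2 scale (limma, Benjamini-Hochberg adjusted P = 0.000102), higher in 2 of 2 treated libraries, and was called higher with each of the 4 other scalings, GAPDH included.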
